A study of Solanum lycopersicum with 10 samples.

Results

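The clones described here are the cDNA clones outside the name group cLED that stood higher in leaves of wounded tomato plants than in leaves of unwounded plants, in wild type and in an antisense Rboh mutant alike. They were chosen by their measured values: with each array's median set to 0, the mean log2 ratio of the wounded group had to exceed that of the control group by 1 or more, a doubling or more, in each genotype. Of 8641 rows outside cLED, 55 met this rule, and the whole table held 11153 usable rows. A further 64 cLED clones met the same 2 thresholds. Because the wounding values chose the clones, they are given as a description with no test.

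Wounding a tomato leaf is known to switch on defence genes in the other, undamaged leaves of the plant. The peptide systemin and jasmonic acid carry this systemic response, whose best known products are proteinase inhibitors and other proteins that hinder the digestion of feeding insects. Rboh genes encode respiratory burst oxidase homologs, NADPH oxidases of the plasma membrane that make superoxide, and reactive oxygen species act as messengers in wound signalling. The deposited table does not pair clone names with genes. None of the 55 names matched the RefSeq gene table of tomato, and a search of all row names for known systemic wound genes (prosystemin, proteinase inhibitors, lipoxygenase and others, 16 name fragments) returned 0 rows. The clones are therefore described by name, and no function is assigned to any of them.

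Total RNA of leaves was hybridised on 10 two-colour arrays against 1 pooled reference made from the samples of the series. The control groups were leaves of unwounded plants, with 3 wild type arrays and 2 mutant arrays. The systemic wounded groups were leaves of wounded plants, with 2 wild type and 3 mutant arrays. The mutant is described as an antisense of an Rboh gene; the sources used here do not give its promoter, the number of lines, plant age, tomato variety or the time after wounding. The labels do not say whether replicates were different plants, so p-values cover only array-to-array spread, possibly technical. In whole leaves, fewer cells of a type and less RNA per cell cannot be told apart. Signal intensities were not analysed here, and precision is limited by how few arrays each group holds.

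Which way the ratio runs is not settled, because the dyes are not named. Over all rows, wild type control replicate 3 correlated at -0.33 and -0.43 with mutant systemic wounded replicates 1 and 3. With wild type control replicates 1 and 2 it correlated at 0.33 and 0.20. Turning the sign of every array leaves such correlations as they are, so they cannot show the direction. All values below read the ratio as sample over pool. Read so, a clone's mean plain ratio over the arrays had a median of 1.12 for the 55 clones, from 0.61 to 1.45. With the sign turned, this mean had a median of 1.84, from 1.01 to 16.6. A pool of all samples in equal parts would bring the mean near 1. Whether the parts were equal was not tested, and neither was the direction. With the sign turned, the 55 clones would all be lower after wounding, every difference below changes its sign, and shares of clones by name stay as they are.

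The 55 clones differed mostly in how far they lay below the pool in unwounded leaves, and little in leaves of wounded plants. Their wild type control means ran from -5.10 to -0.28 with a median of -1.39, and their mutant control means from -3.65 to -0.37 with a median of -1.34. In wounded plants the means ran from -0.18 to 1.91 (wild type) and from -0.34 to 1.16 (mutant), with medians of 0.53 and 0.71. The SD between clones was 1.34 in wild type controls and 0.45 in wounded wild type plants, and in the mutant 0.83 and 0.31. The pool itself held RNA of wounded plants, which bounds how far their means can lie above it. No such bound holds for controls below the pool. The smaller spread in wounded plants is therefore not read as a property of the clones. The wounding change had a median of 1.78 in wild type, from 1.06 to 5.71, and of 2.06 in the mutant, from 1.01 to 3.97. In both genotypes 21 clones changed by 2 or more (4-fold) and 12 by 3 or more (8-fold). Over all rows the median changes were -0.00 and -0.01.

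**Figure D1:**
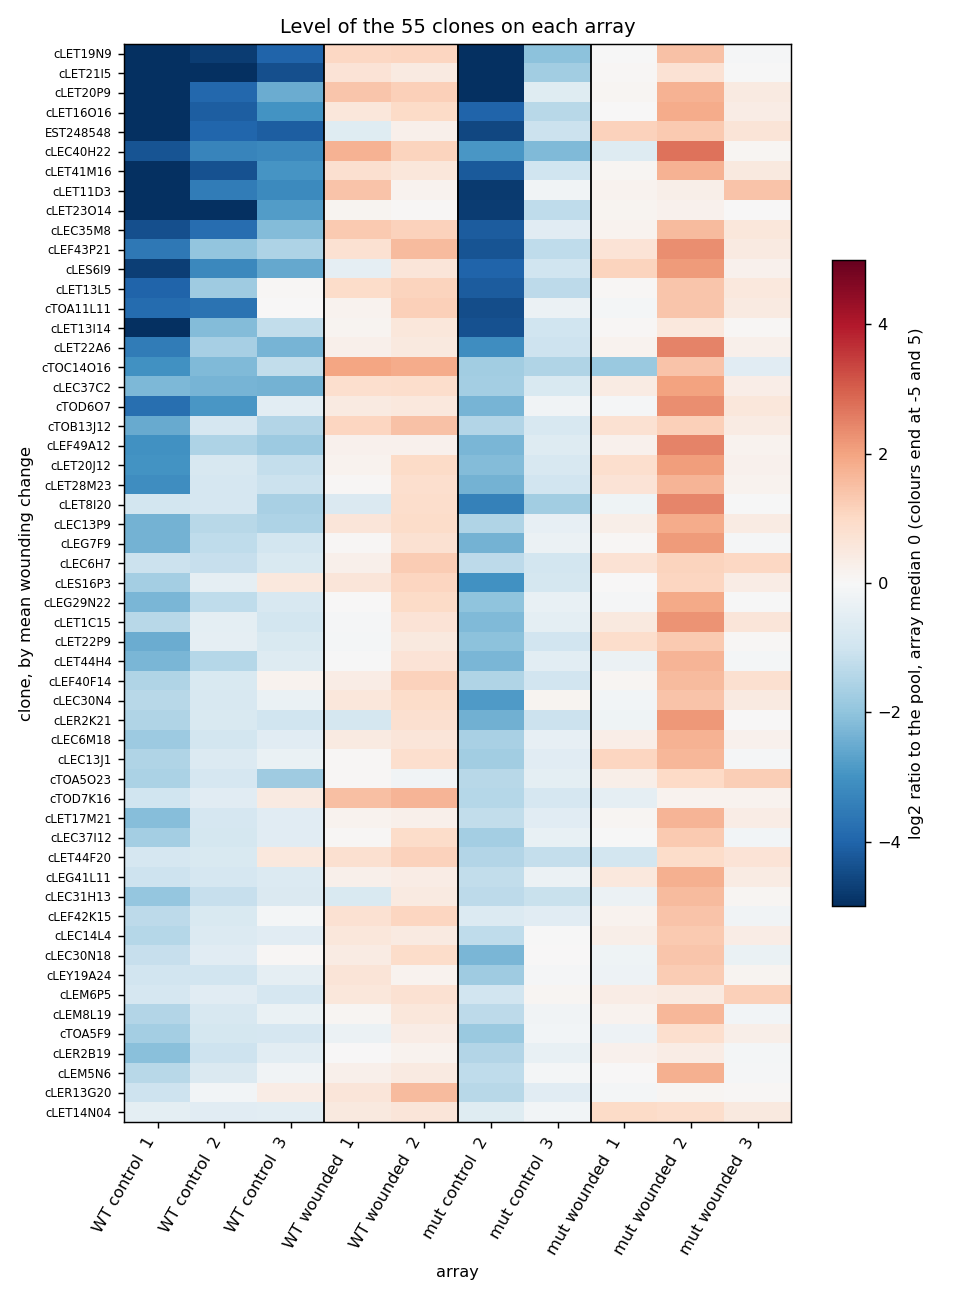
Level of each of the 55 clones (rows, ordered by the mean of both wounding changes) on each of the 10 arrays (columns), as log2 ratio to the pool with the array median at 0; black lines part the groups. The control columns are blue, palest on mutant control replicate 3, and the wounded columns are mostly pale red, deepest on mutant systemic wounded replicate 2.

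Clone cLET19N9 had the largest change when each clone is ranked by the smaller of its 2 changes. It stood at -5.21, -4.73 and -4.01 on the wild type control arrays and at 1.05 and 1.06 on the wild type wounded arrays. On the mutant arrays it stood at -4.96 and -2.05 in controls and at -0.02, 1.47 and -0.07 in wounded plants. All 5 wounded arrays lay above all 5 unwounded arrays, and the change was 5.71 in wild type (SE 0.69), 52.2-fold, and 3.97 in the mutant (SE 0.69), 15.7-fold.

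Clone cLET21I5 followed, at -5.84, -5.05 and -4.40 in wild type controls and 0.67 and 0.47 in wounded wild type plants. In the mutant it stood at -5.56 and -1.73 in controls and at 0.05, 0.73 and -0.03 in wounded plants. Again no wounded array overlapped an unwounded one. The mutant controls of this clone lay further apart than any 2 arrays within its other groups, and the changes were 5.66 (SE 0.80) in wild type and 3.90 (SE 0.80) in the mutant.

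Over the 55 clones, 40 had all 5 wounded arrays above all 5 unwounded arrays, beside 1.28% of all rows. Within wild type alone this held for 53 clones (all rows, 10.8%) and within the mutant for 50 (all rows, 7.55%). The rule used these contrasts, so nothing is read from the counts.

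**Figure D2:**
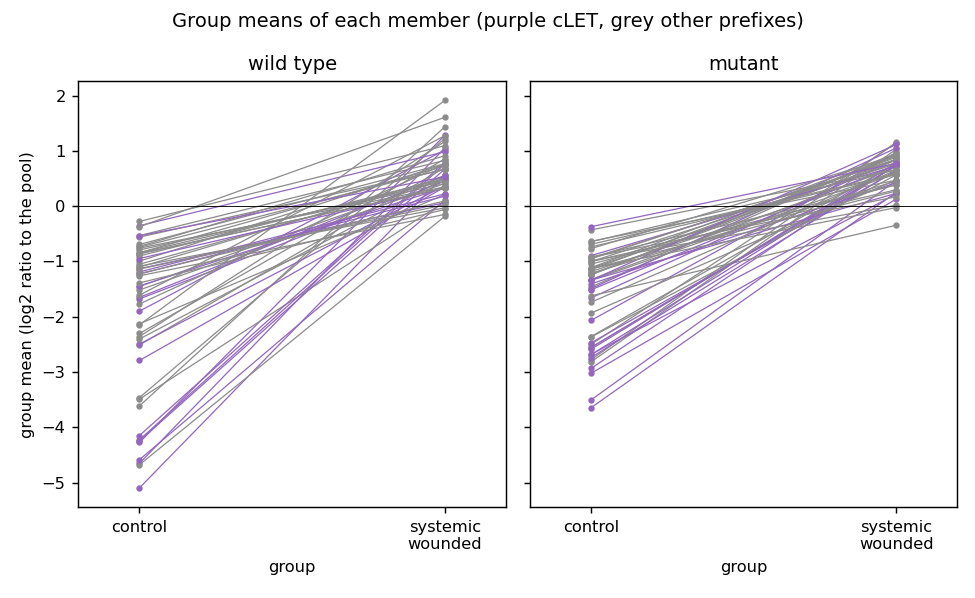
Group means of each of the 55 clones (log2 ratio to the pool) in controls and in systemic wounded plants, wild type on the left and mutant on the right, 1 line per clone, purple for cLET. Lines fan out from control means between -5.10 and -0.28 in wild type to wounded means between -0.18 and 1.91.

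In the tomato EST collections, the letters that open a clone name denote the cDNA library it was picked from; as background and not from the deposited table, cLET clones came from leaves treated with elicitors and cLEC clones from callus. The 55 clones carried 13 of the 32 prefixes (first 4 letters) found outside cLED. Not every prefix is a library: EST2, EST3 and EST4 open EST numbers, and Carb and Chlo open rows named for a gene. The largest group was cLET, with 19 clones, 34.5% of the 55 (exact binomial 95% interval 22.2 to 48.6%, which covers counting error only and treats clones as independent). The prefix made up 11.3% of the rows outside cLED. Among the 21 clones that changed by 2 or more in both genotypes, 12 were cLET, and among the 12 that changed by 3 or more, 7 were. Clones of 1 library can carry the same transcript, and overlap between clones was not tested, so no test of this share was made. The origins of the other prefixes are not given here, and no link between library origin and wounding is read.

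Of 973 cLET rows, 1.95% met the rule, and of 2512 cLED rows 2.55% met the same thresholds. Wounding changes of the 19 cLET clones ran from 1.07 to 5.71 in wild type and from 1.14 to 3.97 in the mutant. Their medians were 2.87 and 3.04. In 17 of the 19 clones every wounded array lay above every unwounded array, beside 1.28% of all rows. The rule used these contrasts, so nothing is read from this count. Control medians were -1.90 in wild type and -2.47 in the mutant, against wounded medians of 0.53 and 0.74. The 2 leading clones of the whole set, cLET19N9 and cLET21I5, belong here.

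The cLEC group followed with 12 clones, 21.8% of the 55, where the prefix made up 25.6% of the rows outside cLED. Of 2212 cLEC rows, 0.542% met the rule. Its changes had medians of 1.60 in wild type and 1.87 in the mutant. Clone cLEC40H22 led the group, at -4.32, -3.32 and -3.20 in wild type controls and 1.75 and 1.12 in wounded wild type plants. In the mutant it stood at -2.91 and -2.20 in controls and at -0.64, 2.73 and 0.10 in wounded plants. Its mutant controls lay close together, while its wounded mutant arrays spanned more than 3 log2 units, with an SD of 1.77. Clone cLEC35M8 showed the opposite spread, with mutant controls at -4.17 and -0.55 and wounded mutant arrays at 0.19, 1.57 and 0.57. Its wild type arrays stood at -4.41, -3.82 and -2.16 in controls and 1.29 and 1.15 in wounded plants.

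The other 24 clones were spread over 11 prefixes with 1 to 4 clones each. There were 4 cLEF clones, 3 each of cLEG, cLER, cLEM and cTOA, 2 each of cLES and cTOD, and 1 each of EST2, cTOC, cTOB and cLEY. The 3 cLEM and 3 cLER clones stayed small in wild type, with changes from 1.11 to 1.42 and from 1.06 to 1.37, whereas the 4 cLEF clones ran from 1.46 to 3.53. The 3 cTOA clones came from only 86 rows, 3.49% of that prefix. The remaining 19 prefixes outside cLED, with 752 rows in all, held none of the clones.

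**Figure D3:**
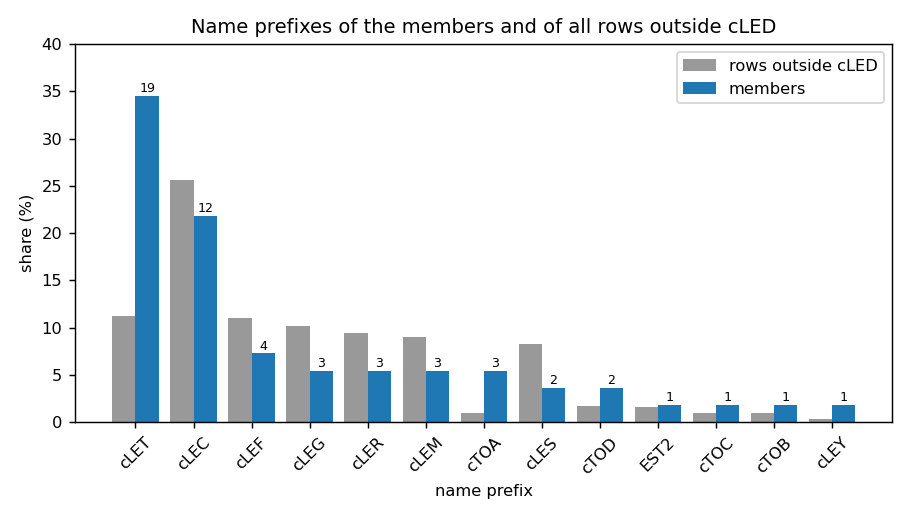
Share of each name prefix (%) among the 55 clones (blue, with the number of clones above the bar) and among the 8641 rows outside cLED (grey). cLET holds 34.5% of the clones and 11.3% of the rows, while cLEC holds 21.8% and 25.6%.

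Plate and well are written in 54 of the 55 names. These clones came from 44 of the 449 plates named in the table, 10 plates held 2 of them and no plate held more. They sat in 15 plate rows and 22 plate columns, so no single plate or well position held the set.

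The arrays of a group did not sit at one level. Mutant control replicate 3 was higher than mutant control replicate 2 at all 55 clones, by a median of 1.37 and at most 4.65, where the median difference over all rows was -0.00. Its median over the clones was -0.61, against -2.18 on replicate 2, and 0 clones lay below -3 on it. On the other unwounded arrays 6 to 20 clones lay below -3. Among wild type controls, replicate 1 was lowest, with a median of -2.23 against -0.96 and -0.82 on replicates 2 and 3.

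Mutant systemic wounded replicate 2 stood apart on the wounded side. It was the highest of the 5 wounded arrays at 43 of the 55 clones, with a median of 1.57, where mutant systemic wounded replicates 1 and 3 had medians of 0.10 and 0.23. The wounded wild type arrays lay between, at 0.37 and 0.80. With mutant control replicate 3 and mutant systemic wounded replicate 2 both left out, 56 clones met the rule, 53 of them among the 55. The part of these arrays' differences in the clones' values was otherwise not tested.

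The pooled SD within groups had a median of 0.95 over the 55 clones and of 0.33 over all rows. Clone cLET14N04 was the steadiest, with an SD of 0.21. It stood at -0.51, -0.58 and -0.53 in wild type controls and at 0.47 and 0.59 in wounded wild type plants. In the mutant it stood at -0.62 and -0.12 in controls and at 0.97, 0.88 and 0.47 in wounded plants. No wounded array overlapped an unwounded one, although its changes, 1.07 and 1.14, were among the smallest. Clone cLEC6H7 came next, with an SD of 0.35. Its unwounded arrays lay between -1.30 and -0.76 and its wounded arrays between 0.26 and 1.25, and the changes were 1.75 (SE 0.31) and 2.06 (SE 0.31).

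At the other end, cLET20P9 and cTOA11L11 each had an SD of 1.83. Clone cTOA11L11 stood at -3.87, -3.70 and 0.03 in wild type controls and 0.19 and 1.21 in wounded wild type plants. In the mutant it was at -4.45 and -0.29 in controls and -0.11, 1.38 and 0.44 in wounded plants. One control array of each genotype lay near the wounded arrays and the others far below. Over both genotypes, wounded and unwounded arrays of this clone overlapped.

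Across the 55 clones the unwounded arrays correlated more highly with each other than the wounded arrays did. Without mutant control replicate 3, the 6 pairs of unwounded arrays correlated at 0.67 to 0.91 across clones, and pairs with that array at 0.46 to 0.51. The 10 pairs of wounded arrays correlated at -0.36 to 0.50. Control means of the genotypes correlated at 0.85 across the clones and wounded means at -0.27. These values are descriptions: the arrays share a pool, the clones are not independent replicates, and the rule chose them on these arrays. The clones also spread less in wounded groups (SD 0.45 and 0.31) than in controls (1.34 and 0.83), which can lower such correlations. Median SDs within groups were 0.29 (wild type) and 0.85 (mutant) in wounded plants and 0.75 and 0.97 in controls. Poorer agreement of the wounded arrays is therefore not read from the correlations.

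There were 3 pairs of clones with nearly the same profile, that is, a mean absolute difference under 0.15 over the 10 arrays, where the median of all 1485 pairs was 0.83. They were picked out after their values were seen. Clones cLEM5N6 and cLEM8L19 differed by 0.11 on average and by 0.18 at most. Clones cLEG29N22 and cLEG7F9 differed by 0.12 on average and cLET20J12 and cLET28M23 by 0.14. Each pair shares a library prefix, but this depends on the limit of 0.15. The pairs next in order did not: cLEG29N22 and cLET44H4 differed by 0.16 and cLEG7F9 and cLET44H4 by 0.18. The pair after them, cLET16O16 and cLET41M16 at 0.19, shared a prefix again. Whether the clones of a pair carry the same transcript was not tested.

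The difference between the wounding changes of the genotypes had a median of 0.08 over the 55 clones, mutant minus wild type, with 25 clones below 0 and 30 above. It is built from the changes the rule used and has no test here. The median SE of a clone's difference was 0.91, and 35 clones lay within 1 SE of 0. The median depended on single arrays: it was -0.83, with 44 clones below 0, without mutant control replicate 2, and 0.67, with 9 below 0, without mutant control replicate 3.

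**Figure D4:**
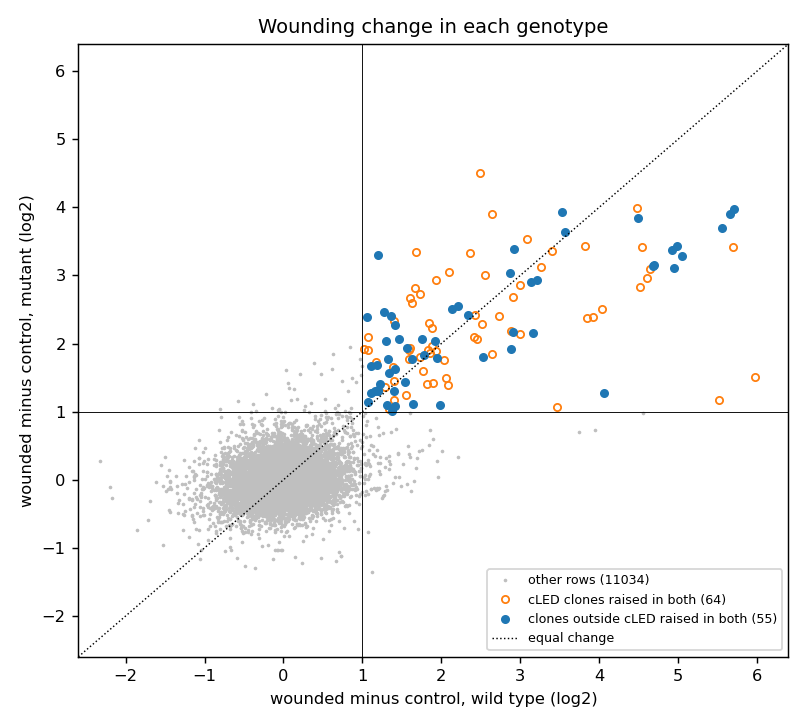
Wounding change (log2, wounded minus control) in wild type (horizontal) and in the mutant (vertical) for all 11153 rows; filled blue points are the 55 clones, open orange points the 64 cLED clones that met both thresholds, solid lines mark the threshold of 1 and the dotted line equal change. The 11 blue points above 4 in wild type all lie below the dotted line, and their mutant changes do not exceed 3.97. These points were picked by their wild type changes. Mutant control replicate 3 was higher than replicate 2 at all 55 clones, so the mutant changes are smaller than replicate 2 alone would give. Mutant systemic wounded replicate 2 was the highest wounded array at 43 of the 55 and makes the mutant changes larger there. The part of either array in these points was not tested. A weaker response in the mutant is not read from these points.

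Clone cTOC14O16 had the lowest difference, -2.78 (SE 1.02). It stood at -3.02, -2.19 and -1.24 in wild type controls and at 1.96 and 1.86 in wounded wild type plants. Its wounded mean in wild type was the highest of the 55. In the mutant it was at -1.74 and -1.51 in controls and at -1.87, 1.41 and -0.57 in wounded plants. The wild type groups were far apart, while 1 wounded mutant array lay below both mutant controls and the mean rested on replicate 2.

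Clone cLET20P9 had the next lowest difference, -1.87 (SE 1.67). It stood at -6.40, -3.93 and -2.50 in wild type controls and at 1.39 and 1.18 in wounded wild type plants. Its mutant values were -5.26 and -0.61 in controls and 0.10, 1.73 and 0.44 in wounded plants. Both control groups were spread over more than 3 log2 units, and the SE of the difference was close to its size.

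In the other direction, cLET8I20 had a difference of 2.10 (SE 1.04). It was at -0.90, -0.86 and -1.64 in wild type controls and at -0.74 and 0.87 in wounded wild type plants. The mutant arrays stood at -3.37 and -1.75 in controls and at -0.21, 2.43 and -0.01 in wounded plants. Both mutant controls lay below all wild type controls. Clone cLER2K21 had a difference of 1.34 (SE 0.95), with wounded wild type arrays at -0.86 and 0.80, the first of which overlapped its wild type controls at -1.49, -0.76 and -1.01. In the mutant it stood at -2.41 and -1.07 in controls and at -0.21, 2.18 and 0.00 in wounded plants, which did not overlap.

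At the threshold, cLER13G20 was the last clone inside, with changes of 1.37 (wild type) and 1.01 (mutant), and cLER2K21 the next, with 1.06 and 2.39. Just outside were cLET13L12, with 0.99 and 1.68, and cLEC32I24, with 1.03 and 0.99. In all, 5 clones had a smaller change under 1.1, and 7 further rows outside cLED had one from 0.9 to 1.

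To read the clones on arrays that had not chosen them, each array was left out in turn, the rule was applied to the other 9, and the chosen rows were read on the array left out. The rule then picked 39 to 60 rows. On the 5 wounded arrays left out, their median level was 0.10 to 1.65, and on the 5 unwounded arrays it was -2.44 to -0.60, where the median of all rows was 0. The medians of wounded and unwounded arrays did not overlap.

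All 45 rows lay above 0 on mutant systemic wounded replicate 2. All rows lay below 0 on wild type control replicate 2 (59 of 59) and on mutant control replicate 2 (39 of 39). On wild type control replicates 1 and 3, 43 of 44 and 50 of 59 lay below 0. Of the wounded arrays, mutant systemic wounded replicate 1 had the lowest median, and 38 of 60 rows lay above 0 there, beside 49.9% of all rows. On mutant systemic wounded replicate 3, 40 of 55 lay above 0. On wild type systemic wounded replicates 1 and 2, 46 of 57 and 45 of 49 rows lay above 0. Mutant control replicate 3 had 55 of 58 below 0. The pool still held the RNA of the array left out, and leaving out 1 of 2 arrays leaves a group of 1.

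**Figure D5:**
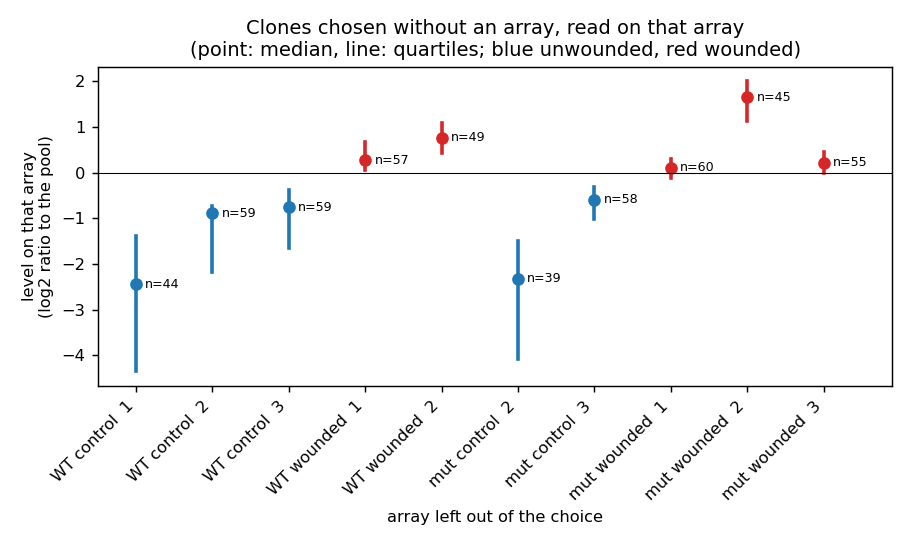
Level (log2 ratio to the pool) on each array of the rows chosen without that array, as median (point) and quartiles (line), with the number of rows chosen; blue arrays are unwounded and red arrays wounded. The wounded medians lie between 0.10 and 1.65 and the unwounded medians between -2.44 and -0.60.

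The genotype contrasts were not used by the rule, though they share its arrays. They ask whether the clones stood at another level in the mutant. By limma's Benjamini-Hochberg adjusted p under 0.05 over all 11153 rows, 1 of the 55 clones was lower in the mutant over both treatments, where 1.40% of all rows were, and 0 were higher, where 3.08% were. At an unadjusted p under 0.05, 2 were higher and 3 lower, beside 12.3% and 10.2% of all rows. The clone that passed, cTOD7K16, stood at -0.98, -0.57 and 0.43 in wild type controls and at 1.5 and 1.71 in wounded wild type plants. In the mutant it was at -1.43 and -0.83 in controls and at -0.43, 0.18 and 0.18 in wounded plants. The wounded groups did not overlap, while the lowest wild type control lay between the mutant controls.

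Its mean difference, mutant minus wild type, was -1.19 (SE 0.27, limma adjusted p = 0.0315), lower in the mutant in both treatments. The call was lost without mutant control replicate 2 or 3, mutant systemic wounded replicate 1 or 3, or wild type systemic wounded replicate 1 or 2, at limma adjusted p-values from 0.0533 to 0.122. With the sign turned, this clone would be higher in the mutant. Its wounding changes were 1.98 in wild type and 1.1 in the mutant.

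In unwounded leaves 0 of the 55 clones passed limma's adjusted p, beside 0.359% of all rows called higher in the mutant and 0.134% called lower. At an unadjusted p under 0.05, 2 were higher and 1 lower in the mutant, where 7.88% of all rows were higher and 5.22% lower. In wounded plants 0 passed as well, beside 0.421% called higher and 0.251% called lower. Here 1 was higher and 3 were lower at an unadjusted p under 0.05, beside 7.18% and 5.77% of all rows, and the lowest limma adjusted p was 0.0923, for cTOD7K16 at a difference of -1.63. The median SE of these 2 contrasts was 0.64 for the 55 clones and 0.30 for all rows, so differences had to be larger to pass here.

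Over both treatments the differences of the 55 clones had a median of 0.19, from -1.19 to 1.54, and 40 lay above 0, beside a median of -0.01 and 48.9% of all rows. Mutant control replicate 3 and mutant systemic wounded replicate 2, both high at these clones, enter this median. How far it rests on them was not tested. The clones are not independent, with a median correlation of 0.88 between pairs of clones, so the count of 40 carries no test. Clone EST248548, named here after its values were seen, had the highest, 1.54 (SE 0.57), which did not pass (limma unadjusted p = 0.0196, adjusted p = 0.142). It stood at -5.96, -3.97 and -4.11 in wild type controls and at -0.62 and 0.25 in wounded wild type plants. In the mutant it stood at -4.56 and -1.08 in controls and at 1.14, 1.30 and 0.66 in wounded plants. The 3 wounded mutant arrays lay above both wounded wild type arrays, while 1 mutant control lay among the wild type controls.

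Beside the 64 cLED clones that met both thresholds, the 55 clones showed the same kind of values, and no difference between the sets was tested. The cLED clones had median changes of 2.07 in wild type and 2.20 in the mutant, a median difference between them of -0.09, and 49 of 64 without overlap between wounded and unwounded arrays. They were 2.55% of the 2512 cLED rows, and the 55 clones were 0.64% of the rows outside cLED. Mutant control replicate 3 had a median of -0.66 over the cLED clones, and mutant systemic wounded replicate 2 was the highest wounded array at 49 of the 64.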

How the data were processed

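The deposited values were read as log2 ratios of a leaf sample, in channel 2 per the labels, to a pool of all samples. Between 99.7% and 100.0% of the values per array are the log2 of a ratio with 3 decimals (tolerance 0.02 thousandths). The sources used here name no background correction, normalization or image software. Array medians lay between -0.01 and 0.07 as deposited. Of 11347 rows, 193 marked as failed and 1 blank were left out. Each array's median was then set to 0.

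The rule was applied to the means of 4 groups. One model of 4 group means was fitted to all 10 arrays and 11153 rows using lmFit and eBayes of limma 3.58.1 in R 4.3.3, two-sided, and SEs are limma's. On simulated data, the contrast of genotype over both treatments recovered 52.5% of 200 changed rows among 11153 at a log2 change of 1 and 97.0% at 2. These shares do not describe the 55 clones, whose median SE for this contrast was 0.45 against 0.21 for all rows. Recovery at the SEs of the 55 clones was not tested. Plots used matplotlib 3.10.9.

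The members and lists were chosen with earlier results of these data known. Named were the clones leading by the smaller change overall and in prefixes with 5 or more members, those of extreme genotype difference, of extreme spread and at the threshold, and those called between genotypes. Alternatives were other normalizations, array weights, trend and robust eBayes, replicate blocks, thresholds, kept failed rows and each array left out.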

Additional observations from a re-analysis of the deposited data

Results flagged for a closer look

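The rule was also applied to the rows left out of all comparisons. Of the 193 rows marked as failed, 1 met the rule, with a wounding change of 2.14 in wild type and 1.53 in the mutant. That is 0.518% of the failed rows, a share that does not exceed the 0.64% of the rows outside cLED. The row carries no clone name.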

How the results depend on the processing

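The number of clones was 55. With 1 array left out it ran from 39 (without mutant control replicate 2) to 60 (without mutant systemic wounded replicate 1). It was 69 at a minimum change of 0.8 and 29 at one of 1.5, the other normalizations, group medians and kept failed rows gave 47 to 56, and with all signs turned 1 row met the rule. The share of cLET ran from 32.2% to 43.6% with arrays left out and from 33.3% to 44.8% under other settings, choices added after seeing the data, as was the removal of both arrays that stood apart. The gap between wounded and unwounded arrays left out, 2.00, ran from 1.69 to 1.98 under other normalizations. For genotype over both treatments, 1 called clone became 3 with quantile normalization (cTOD7K16, cLER13G20 and EST248548), 2 with the replicate block by title number and 2 by description number (each cTOD7K16 and cLER13G20), and 0 to 2 with an array left out, the 2 without mutant control replicate 2 being cLET21I5 and EST248548. For genotype in unwounded leaves, 0 became 1 (cLET21I5) without mutant control replicate 2, with 0 to 1 over the arrays left out. For genotype in wounded plants, 0 became 1 with quantile normalization, scale normalization, array weights, either replicate block, an adjusted p under 0.1 and a fit to the compared groups alone, and leaving out arrays gave 0 to 1 (cTOD7K16 without wild type control replicate 3, cTOC14O16 without mutant systemic wounded replicate 2). The replicate block changed no other count of calls here. The numbers pair no arrays by the labels, and deviations of same-numbered arrays from their group means correlated at -0.35 to 0.34 by title and -0.35 to 0.39 by description. Differently numbered arrays correlated at -0.39 to 0.39 by title and -0.39 to 0.35 by description. In groups of 2 arrays the deviations mirror each other, so these ranges cannot show whether the numbers pair arrays. The cause of the shifts between settings was not tested. The value of cTOD7K16 stayed between -1.44 and -0.99 and kept its call in 8 of 8 other settings and in 4 of 10 fits with an array left out.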
